A study of Mus musculus with 10 samples.

Results

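Transforming growth factor beta (TGF-β) signalling was described in mature thymocytes through 9 genes: the ligand gene Tgfb1, the receptor genes Tgfbr1 and Tgfbr2, the signal carriers Smad2, Smad3 and Smad4, and the inhibitors Smad7, Ski and Skil. They were chosen by name from the 23005 genes with a RefSeq transcript matched to a symbol, and all 9 were measured. Each gene took its RefSeq transcripts and the assembled spliced transcripts that share an intron with that gene only. The study compared CD4 single-positive (CD4SP) with CD8 single-positive (CD8SP) thymocytes of C57BL/6 mice aged 6 to 8 weeks, untreated as far as the labels say. For each sample, 2 to 3 thymi were pooled, so no value belongs to a single animal. Beads removed the cells that carry the other coreceptor, and sorting by flow cytometry retained mature cells (TCRβ on, CD24 off) with CD4 but not CD8, or CD8 but not CD4. There was 1 long-read (PacBio) library per lineage and 4 short-read (Illumina) samples per lineage that the labels separate only by sequencing lane and that enter 1 pooled file. With a single value per lineage there is no replicate, no spread between samples and no p-value.

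TGF-β is released in a latent form and, once active, binds the type II receptor encoded by Tgfbr2, which brings in and phosphorylates the type I receptor encoded by Tgfbr1. The type I receptor phosphorylates Smad2 and Smad3, which join Smad4 and regulate genes in the nucleus. Smad7 is an inhibitory Smad that is itself induced by the pathway, and Ski and SnoN, the product of Skil, are corepressors that bind the Smads. In the thymus and in peripheral T cells the pathway is known for restraining activation, for the survival of developing T cells and for the generation of regulatory T cells.

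Alternative coding segments of 3 genes are shown because the comparison of full RefSeq forms of Tgfbr2, the called acceptor of Tgfbr1 and the known long and short forms of SnoN turn on them. They were read from GENCODE M21 transcripts (GRCm38) and are written 5′ to 3′, with the segment present only in the longer form in capitals and 15 bases of the spliced transcript on each side in lower case. The Tgfbr2 segment is exon 2 of 8 of a coding transcript of the gene (chr9:116158271-116158345, minus strand), 75 bases or 25 codons long. The Tgfbr1 segment is the first 12 bases, or 4 codons, of exon 3 of 9 (chr4:47393247-47393258, plus strand). The Skil segment is the last 138 bases, or 46 codons, of exon 4 of 7 (chr3:31113503-31113640, plus strand).
Tgfbr2 exon of 75 bases: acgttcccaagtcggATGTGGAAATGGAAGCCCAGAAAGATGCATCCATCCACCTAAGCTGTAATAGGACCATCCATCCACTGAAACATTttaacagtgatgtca
Tgfbr1 segment of 12 bases: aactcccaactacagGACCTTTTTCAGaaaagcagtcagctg
Skil segment of 138 bases: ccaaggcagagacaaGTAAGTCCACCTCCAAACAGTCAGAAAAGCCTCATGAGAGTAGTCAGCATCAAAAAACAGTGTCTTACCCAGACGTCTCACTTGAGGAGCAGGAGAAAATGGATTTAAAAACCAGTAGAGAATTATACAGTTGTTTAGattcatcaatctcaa
Each segment has a length divisible by 3, so that its loss leaves the reading frame of the rest of the transcript unchanged.

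The markers of the sorted populations followed the labels in direction. All 5 CD4 lineage genes (Cd4, Zbtb7b, Cd40lg, Gata3 and Itm2a) were called higher in CD4SP, with a summed level of 306 FPKM against 22.3, and all 6 CD8 lineage genes (Cd8a, Cd8b1, Itgae, Nkg7, Runx3 and Eomes) were called higher in CD8SP, at 960 against 59.7. Genes of the markers that the sort selected against were still listed above 0. In CD4SP Cd8b1 stood at 32.9 FPKM and Cd8a at 10.9, and in CD8SP Cd4 stood at 1.69. Cd24a was at 11.8 in CD4SP and 10.1 in CD8SP. FPKM scales fragments to transcript length and library size, so levels can be compared between genes. Calls required an FPKM of 1 or more in the higher lineage, a log2 ratio of CD8SP to CD4SP (on FPKM plus 0.1) of size 1 or more, and deposited intervals, summed over transcripts, that did not overlap. Of 9595 genes measured (at least 1 FPKM in either lineage), 14.9% were called, of which CD8SP was the higher lineage for 10.1% of genes and CD4SP for 4.77%. The median log2 ratio of measured genes was 0.22 rather than 0, and dividing out this shift changed the split of calls from 967 toward CD8SP and 458 toward CD4SP to 654 and 640. Markers of other cells that could reach a sort were also read. Of the regulatory T cell list, Foxp3 (2.18 against 0.318 FPKM) and Il2ra (3.22 against 0.366) were called higher in CD4SP, and the highest value of the list was that of Ikzf2 in CD8SP (21.1, against 12.5 in CD4SP). Of the double-positive list, Rag1 (12.5 FPKM in CD4SP against 4.12), a level near that of Tgfb1 and Smad2 there, and Arpp21 (5.54 against 2.07) were also called higher in CD4SP, and Dntt was its highest gene (13.9 and 11.2). Called higher in CD4SP were further Klrb1c and Il17rb of the innate-like list, H2-Ab1 of the myeloid list and Hba-a2 of the erythroid list. Cd79b of the B cell list was called higher in CD8SP (5.49 against 0.583 FPKM), with the B cell factor Pax5 listed at 0 in both. Platelets are a rich source of Tgfb1, and the 4 platelet genes summed to 0.688 FPKM in CD4SP and 0.237 in CD8SP, with Pf4 and Ppbp listed at 0 in both. The highest genes of the remaining lists were not called: Cd3g of all αβ T cells (199 and 307 FPKM), Cd74 of myeloid cells (7.28 and 4.55), Hbb-bs of erythroid cells (3.67 and 3.17), Pecam1 of stromal cells (22.4 and 14.8) and Itga2b, the single platelet gene above 0. Of the stromal list the next highest gene after Pecam1 was Epcam (1.12 and 0.964), and the others were below 0.1 FPKM in both lineages. What part these other cells have in the values of the 9 genes was not tested. In such bulk samples, fewer cells of a type and less RNA per cell cannot be told apart.

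None of the 9 genes was called, against 14.9% of measured genes, and their levels ran from 10.8 to 44.9 FPKM in CD4SP and from 7.67 to 48.7 in CD8SP. By plain FPKM 7 stood higher in CD4SP and 2, Tgfbr2 and Smad7, in CD8SP, but Smad2 turned to CD8SP in the RefSeq-only and exon-based values, Tgfbr1 in the exon-based value and Ski in the RefSeq-only value, and Tgfbr2 turned to CD4SP after rescaling. Their median log2 ratio was -0.14, beside 0.22 over all measured genes, and it was -0.36 after rescaling. Their median log2 difference was 0.26 in size, beside 0.41 over all measured genes. The intervals of 5 of the 9 did not overlap between lineages, beside 54.7% of measured genes, so this count is close to the background. The intervals are an incomplete measure of error: the summed FPKM of Tgfb1 and Tgfbr2 in CD4SP lies below its own interval, as values lie outside theirs for 13.4% of measured genes in CD4SP and 13.9% in CD8SP.

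**Figure D1:**
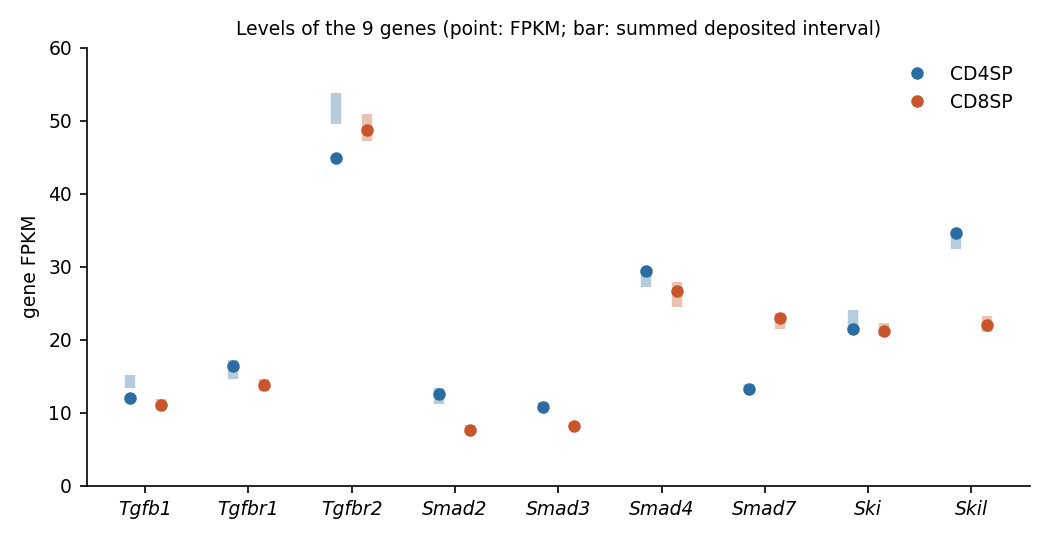
Gene FPKM (y axis) of the 9 genes (x axis) in CD4SP and CD8SP, 1 pooled value per lineage. Points are the summed FPKM and bars the summed deposited intervals; Tgfbr2 is the highest gene in both lineages, and the CD4SP points of Tgfb1 and Tgfbr2 lie below their bars.

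Tgfbr2 was the highest of the 9 in both lineages, at the 96.1st percentile of measured genes in CD4SP and the 95.2nd in CD8SP. In CD4SP it was followed by Skil, Smad4, Ski, Tgfbr1, Smad7, Smad2, Tgfb1 and Smad3 by FPKM. Of neighbours in this order only Smad7 and Smad2 had overlapping intervals. The intervals do not settle the lower places: that of Tgfb1 (13.4 to 15.1) overlaps those of Tgfbr1 and Smad7 and lies above that of Smad2. The intervals of Smad2 and Smad3 also overlap. In CD8SP the order after Tgfbr2 was Smad4, Smad7, Skil, Ski, Tgfbr1, Tgfb1, Smad3 and Smad2. There Smad7, Skil and Ski all had overlapping intervals, as had Smad3 and Smad2. By FPKM Smad7 thus stood in place 6 in CD4SP and in place 3 in CD8SP, and Skil in places 2 and 4. The intervals do not separate Smad7, Skil and Ski in CD8SP. In the exon-based value Smad7 (19.6) stood below Skil (23.0) and Ski (20.9) there.

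Tgfb1 (chromosome 7, 25687002 to 25705077, plus strand), which encodes the main TGF-β ligand of immune cells, stood at 12.0 FPKM in CD4SP and at 11.1 in CD8SP, with a log2 ratio of -0.11. Its single RefSeq transcript of 7 exons, NM_011577, carried 96.6% of the gene's FPKM in CD4SP and 91.6% in CD8SP. The lineages were nearly alike by FPKM. Its CD4SP interval, 13.4 to 15.1, lies above the FPKM itself and is separate from the CD8SP interval of 10.4 to 11.9. All 6 introns of the RefSeq transcript were also found in assembled transcripts of both lineages. In CD4SP the only assembled transcript above 0 had 4 exons, at 0.412 FPKM, so part of the introns there rests on transcripts listed at 0.

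Tgfbr1 (chromosome 4, 47353222 to 47414931, plus strand), the type I receptor, stood at 16.5 FPKM (interval 14.6 to 17.2) in CD4SP and 13.7 (13.0 to 14.6) in CD8SP, and the intervals just overlapped. Its RefSeq transcript NM_009370 alone was nearly equal, at 12.0 and 11.8 FPKM. The rest of the CD4SP value lay mostly in a single assembled transcript of 4 exons and 707 bases at 3.48 FPKM, which differs from it at a splice site.

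Tgfbr2 (chromosome 9, 116084293 to 116175360, minus strand), the type II receptor that binds the ligand first, was listed with 44.9 FPKM in CD4SP and 48.7 (47.2 to 50.9) in CD8SP. The CD4SP interval was 49.5 to 53.8, above the FPKM and overlapping that of CD8SP. The log2 ratio was 0.12, and -0.10 after rescaling, so no direction held for the gene as a whole. Its 2 RefSeq transcripts moved in opposite ways by FPKM.

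Smad2 (chromosome 18, 76241580 to 76310963, plus strand) and Smad3 (chromosome 9, 63646767 to 63757994, minus strand) encode the receptor-activated Smads of this pathway. Smad2 stood at 12.5 FPKM (11.2 to 13.4) in CD4SP and 7.67 (7.05 to 8.33) in CD8SP, a 1.64-fold difference with separate intervals. This difference lay in assembled transcripts: the 2 RefSeq transcripts summed to 5.04 FPKM in CD4SP and 5.55 in CD8SP, a log2 ratio of 0.14 in the other direction, and the exon-based value, which weights each transcript by how much of the RefSeq exon sequence it covers, was 7.04 and 7.97. RefSeq transcripts held 40.2% of Smad2 FPKM in CD4SP and 72.4% in CD8SP. In CD4SP 4 assembled transcripts of 3 to 6 exons held the rest, the highest at 3.06 FPKM, and in CD8SP 3 of 7 to 11 exons did, none above 0.908. Smad3 stood at 10.8 FPKM (10.4 to 11.4) in CD4SP and 8.24 (7.93 to 8.74) in CD8SP. Its log2 ratio was -0.38 over all transcripts, -0.43 over the RefSeq transcript alone and -0.38 in the exon-based value, so the direction to CD4SP held in each, at a size below that needed for a call.

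Smad4 (chromosome 18, 73639009 to 73703780, minus strand), the common partner of the activated Smads, stood at 29.5 FPKM (27.2 to 29.7) in CD4SP and 26.7 (24.5 to 27.9) in CD8SP, with overlapping intervals. Its RefSeq transcript of 12 exons was at 21.6 and 20.9 FPKM. After Tgfbr2 it was the highest gene of the signalling chain in both lineages, and its level differed little between them.

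Smad7 (chromosome 18, 75367529 to 75395935, plus strand), the inhibitory Smad, stood at 13.3 FPKM (12.7 to 13.98) in CD4SP and 22.9 (21.4 to 23.6) in CD8SP. This was a 1.73-fold difference, a log2 ratio of 0.78, and the largest of the 9 in size before rescaling. After rescaling Smad2 (-0.92), Skil (-0.87) and Smad3 (-0.60) were larger in size than Smad7. Smad7 pointed to CD8SP in every way of computing it that was tried, with log2 ratios of 0.47 over the RefSeq transcript (11.5 and 15.9 FPKM), 0.51 in the exon-based value and 0.57 after rescaling. The remaining CD8SP value was mostly an assembled transcript of 2 exons at 5.18 FPKM, above its own interval of 4.40 to 4.93.

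Ski (chromosome 4, 155154075 to 155222592, minus strand), a corepressor that binds Smad4 and the receptor-activated Smads, stood at 21.5 FPKM (21.4 to 24.0) in CD4SP and 21.2 (20.5 to 22.3) in CD8SP, a log2 ratio of -0.02. Skil (chromosome 3, 31095058 to 31122577, plus strand), whose product SnoN is degraded upon TGF-β signalling, stood at 34.7 FPKM (32.4 to 35.1) in CD4SP and 22.1 (21.0 to 23.2) in CD8SP. The Skil intervals did not overlap and the fold was 1.57. The log2 ratio of Skil was -0.65 over all transcripts, -0.40 over RefSeq transcripts and -0.23 in the exon-based value, toward CD4SP in each. The paralogous corepressors thus differed in their values: Ski was level, and Skil was higher in CD4SP at a size that did not reach a call.

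**Figure D2:**
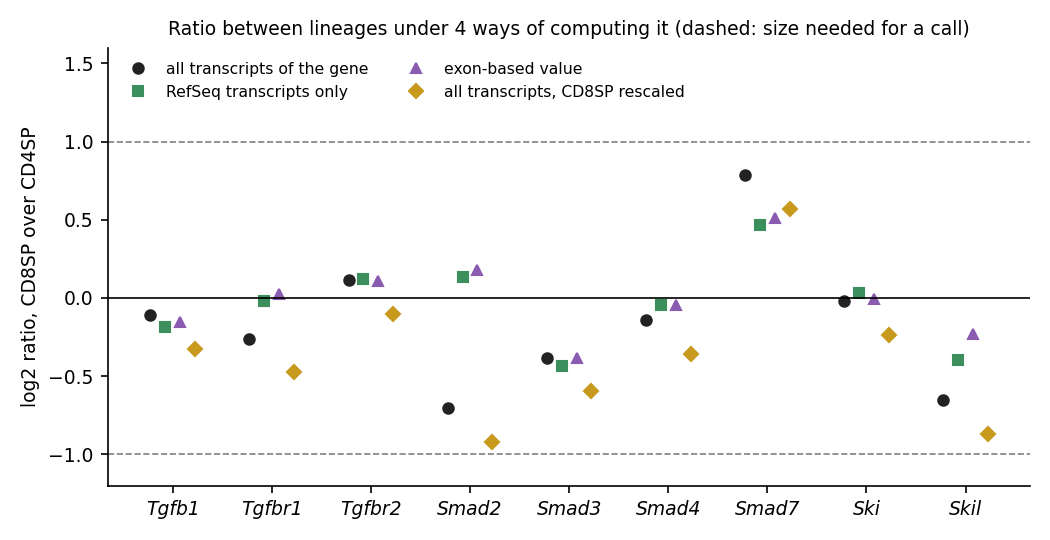
Log2 ratio of CD8SP to CD4SP (y axis) of each gene under 4 ways of computing it; dashed lines mark the size needed for a call. No point reaches a dashed line, the Smad7 points are all above 0, and the Smad2 points fall on both sides of it.

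The isoforms of 3 genes with several RefSeq transcripts were compared next. Tgfbr2 has a form of 8 exons (NM_009371) with the exon of 75 bases printed above, and a form of 7 exons (NM_029575) without it. The exon encodes a stretch of the extracellular part of the receptor, and the longer receptor is known as type IIB. The longer form was at 19.3 FPKM in CD4SP and 13.3 in CD8SP, and the shorter form at 18.9 and 28.4. The forms were near parity in CD4SP, whereas in CD8SP the shorter form was the higher. With the assembled transcript of CD8SP that also holds the exon, its percent spliced in (PSI, the share of summed FPKM in transcripts with the longer form) was 50.5% in CD4SP, with limits of 49.0 to 52.6 from the deposited intervals, and 34.7% in CD8SP, with limits of 32.8 to 36.2. The difference of 15.8 points had separate limits and was below the 20 points set for a call. This PSI counts only transcripts with both RefSeq introns beside the exon. An assembled CD4SP transcript of 5 exons at 2.65 FPKM also holds the exon but joins it to another donor. It is not counted, and with it the CD4SP PSI would be higher, at a value that was not computed. Of 3426 events with both forms in RefSeq, 17.7% were called, and 24.0% differed by at least as much as this exon. Both RefSeq transcripts of Tgfbr2 in CD4SP lie below their own intervals, 22.1 to 23.6 for the longer and 21.3 to 23.0 for the shorter form.

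Skil differs at the splice donor that keeps or removes the segment of 138 bases, and the shorter product is known as SnoN2. The shorter RefSeq transcript NM_001039090 dominated in both lineages, at 24.8 FPKM in CD4SP and 17.2 in CD8SP. The longer NM_011386 was listed at 0 in CD4SP and at 1.64 FPKM in CD8SP. The CD4SP value of 0 was not an absence of the segment, since an assembled transcript with the longer site stood at 3.12 FPKM there. Over all transcripts the PSI of the segment was 11.2% (limits 9.9 to 12.2) in CD4SP and 16.7% (14.8 to 18.5) in CD8SP, a difference of 5.54 points. The form without the segment thus made up most of Skil at this junction in both lineages. The third RefSeq transcript, NM_001271772, which removes 2 short introns from the first part of the gene, was listed at 0 in both, and both of these introns were at 100% retention in each lineage.

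Smad2 has 2 RefSeq transcripts that differ in their first exon only. With the assembled transcripts that share it, the upstream first exon held 85.1% (limits 82.0 to 87.1) in CD4SP and 84.5% (82.0 to 86.8) in CD8SP. This was a difference of 0.672 points with overlapping limits. Between the 2 RefSeq transcripts alone, the upstream one held 76.1% in CD4SP and 81.9% in CD8SP. A further first exon, outside RefSeq, does not enter this event. In all, 5 events of the 9 genes had both forms in RefSeq, and none was called at 20 points, where 17.7% of such events were called among all genes. At a difference of 10 points 1 was called, the exon of Tgfbr2, beside 1336 of 3426 over all genes.

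**Figure D3:**
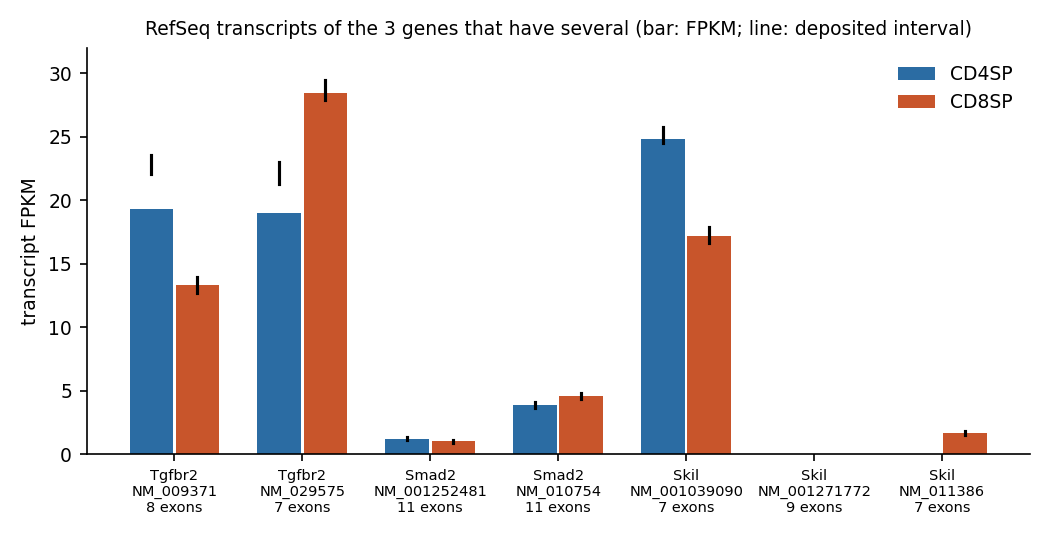
FPKM (y axis) of each RefSeq transcript of Tgfbr2, Smad2 and Skil (x axis) in CD4SP and CD8SP; lines are the deposited intervals. The 2 Tgfbr2 forms are near 19 FPKM in CD4SP and at 13.3 and 28.4 in CD8SP.

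Assembled transcripts added further events. Of 80 events of the 9 genes that reached 1 summed FPKM in each lineage, 13 were called, beside 19.9% of such events over all genes. Retained introns were the most common type, with 36 tested and 7 called, beside 23.5% of retained introns over all genes. Of the 80 events 5 differed by 100 points, with each form listed in a single lineage, beside 2.24% of events over all genes. Of the 21 events with both forms in both files 3 were called, beside 13.7% over all genes, in Tgfbr1, Smad2 and Ski. The shares called at 20 points are close to the background.

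The Tgfbr1 event was the acceptor that adds the 12 bases printed above. The longer form held 77.5% (limits 76.5 to 84.7) in CD4SP and 98.9% (98.6 to 99.2) in CD8SP, a difference of 21.4 points. Both forms are in GENCODE, in coding sequences of 1509 and 1497 bases. The longer form was the full RefSeq transcript, at 12.0 and 11.8 FPKM. The shorter form was carried in CD4SP by the transcript of 4 exons and 707 bases at 3.48 FPKM, and in CD8SP by a transcript of 7 exons at 0.129 FPKM. The event therefore sets a short fragment of the gene against a whole transcript. A retained Tgfbr1 intron of 2002 bases was at 8.25% in CD4SP and 0% in CD8SP, and cannot be formed without transcripts that do not count toward the gene.

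The Smad2 exon of 90 bases (chr18:76286860-76286949) is the one whose loss gives the known short Smad2 that can bind DNA directly. It was at 100% in CD4SP, where no transcript without it was listed, and at 76.8% (limits 73.2 to 85.5) in CD8SP. The skipping form was an assembled CD8SP transcript of 3 exons at 2.13 FPKM that shares no intron with RefSeq and so does not count toward the gene's FPKM. Without such transcripts the event cannot be formed. A further exon form of 61 bases (chr18:76302156-76302216), which starts inside a coding exon of 138 bases, was at 18.1% in CD4SP and 60.4% in CD8SP. It rested on a summed FPKM of 1.84 and 1.5 only. Both of its forms are assembled transcripts, and the RefSeq transcripts, summing to 5.04 and 5.55 FPKM, enter neither. The whole exon of 138 bases, named after its values were seen, was at 77.0% and 90.3%, a difference of 13.3 points with separate limits.

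In Ski an upstream first exon was at 64.7% (limits 54.1 to 71.9) in CD4SP and 100% in CD8SP, on a summed FPKM of 1.41 and 2.15. Both forms are assembled transcripts, and the RefSeq transcript, at 17.5 and 17.9 FPKM, enters neither. A first exon event that includes the RefSeq transcript, named after its values were seen, was at 92.6% in CD4SP and 93.9% in CD8SP. A retained intron of 1111 bases was at 3.38% in CD4SP and 0% in CD8SP. Chosen after its values were seen, a coding exon of 123 bases (chr4:155160834-155160956) was at 95.2% in CD4SP and 89.2% in CD8SP and so was in most Ski FPKM at this junction in both.

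The best covered events of the other genes, by summed FPKM, were below 20 points. In Tgfb1 a retained intron of 129 bases held 3.43% in CD4SP and 6.23% in CD8SP, and a coding exon of 118 bases was at 100% and 97.8%. In Smad3 a retained intron of 2060 bases was at 7.04% and 8.16%, and one of 2095 bases at 0% and 7.28%. Smad4 retained an intron of 94 bases at 10.2% and 6.51%, the former above its limits of 7.83 to 9.68. A Smad4 intron of 1313 bases was at 5.74% and 8.52%, the latter above its limits of 4.90 to 6.58, and with transcripts counted in the gene alone it was at 5.74% and 3.35%, which turns the direction. In Smad7 2 retained introns were each seen in a single lineage: the intron of 4925 bases at 13.4% in CD4SP, and that of 1326 bases at 7.94% in CD8SP. In Tgfbr2 a donor shifted by 1 base was at 2.82% in CD4SP and 0% in CD8SP, from a transcript that does not count toward the gene, and a retained intron of 1538 bases at 0% and 4.08%. In Skil an acceptor shifted by 1 base and a retained intron of 1685 bases were both at 9.48% in CD4SP and 0% in CD8SP, and both rest on the same assembled transcript of 3 exons at 2.93 FPKM. The remaining called events, named after their values were seen, rested on summed FPKM of 7.98 or less. In Smad4 retained introns of 953 and 763 bases were at 100% in CD4SP and 0% in CD8SP, and one of 98 bases at 100% and 59.1%. Both forms of these Smad4 events are assembled transcripts, and the RefSeq transcript, at 21.6 and 20.9 FPKM, enters neither. The RefSeq introns that overlap those of 953 and 763 bases were retained at 15.3% and 5.74% in CD4SP and 0% in CD8SP. In Tgfbr2 an alternative last exon and a donor shifted by 4 bases were at 100% in CD4SP and 0% in CD8SP, and a retained intron of 1537 bases at 0% and 100%. These Tgfbr2 events also compare assembled transcripts only. In Skil a retained intron of 3175 bases was at 48.4% in CD4SP and 0% in CD8SP. The overlapping intron of the shorter and dominant RefSeq form, of 3313 bases, was at 10.5% and 0%. In Smad2 retained introns of 166 and 2083 bases were at 32.6% and 34.1% in CD4SP and 0% in CD8SP. Both of these Smad2 events rest on the same assembled transcript of 3 exons at 2.60 FPKM. Without transcripts outside the gene, the Smad4 intron of 763 bases and, in Tgfbr2, the donor and the intron of 1537 bases cannot be formed. Ribosomal RNA depletion keeps unspliced RNA, and the part of unspliced RNA in these retained introns was not tested.

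**Figure D4:**
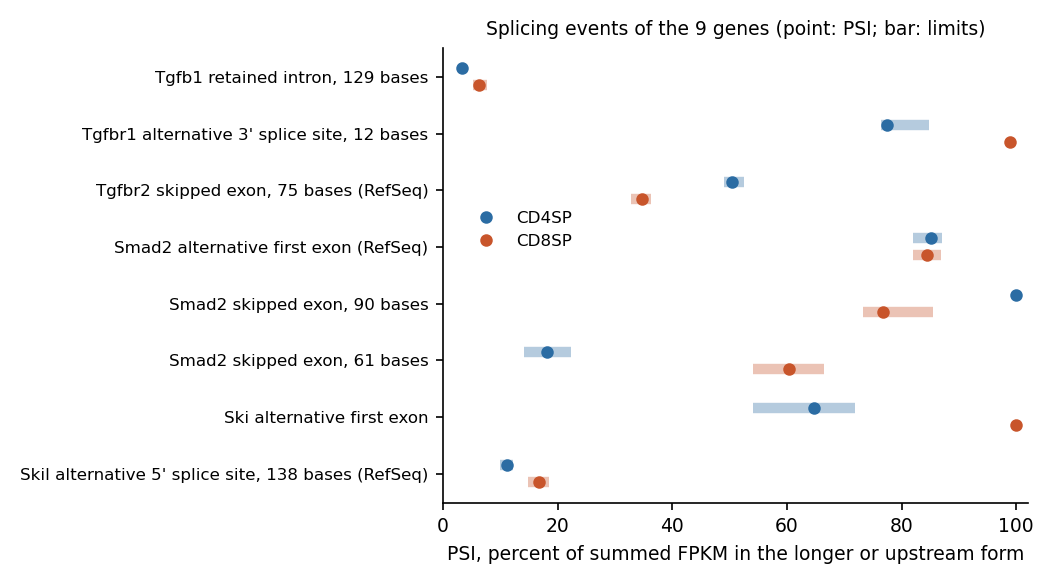
PSI in percent (x axis) of 8 splicing events of the 9 genes (y axis) in CD4SP and CD8SP; points are PSI and bars the limits from the deposited intervals. The limits of the Tgfbr2 exon, Tgfbr1 acceptor and Smad2 exons do not overlap between lineages, and those of the Smad2 first exon do.

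Long reads gave few isoforms of these genes. In CD4SP 2 of 8289 isoforms belonged to them (0.0241%, exact Clopper-Pearson 95% interval 0.00292 to 0.0871%), and in CD8SP 6 of 9476 (0.0633%, interval 0.0232 to 0.138%). These intervals overlap and cover counting error only, and the table counts each isoform once whatever its reads. The 1 spliced isoform was of Tgfb1 in CD8SP, a full splice match of 7 exons and 1925 bases that starts 246 bases inside its annotated start and ends 4 bases from its annotated end, with an open reading frame of 390 codons. The Skil isoforms of both lineages, of 899 bases in CD4SP and 1697 in CD8SP, are unspliced and end 3 and 2 bases from annotated ends, inside the last exon and outside the coding sequence. Smad3 had an unspliced isoform of 2753 bases in CD4SP that lies in an intron, with 65% A in the genomic window after its end, and one of 2745 bases in CD8SP at the annotated 3′ end, with 35% A. A high share of A there is a known sign of priming inside a transcript, and 62.4% of all isoforms in CD4SP and 58.3% in CD8SP had more than 60% A. Tgfbr2 had 2 unspliced isoforms in CD8SP, of 2621 and 3383 bases, and neither reaches the alternative exon in spliced form. Smad7 had an unspliced isoform of 1992 bases in CD8SP with 75% A after its end. For Tgfbr1, Smad2, Smad4 and Ski there were 0 isoforms, which allows a share of up to 0.0362% in CD4SP and 0.0317% in CD8SP for each. No spliced long-read isoform covered the alternative segments printed above.

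The other genes of the pathway were read from 8 lists with 94 genes besides the 9, of which 63 were measured. Of these, 8 passed the call toward CD8SP, beside 10.1% of all measured genes, and 3 toward CD4SP, beside 4.77%. After rescaling the split was 5 and 8, beside 654 and 640 over all genes. Furin, Nedd4l and Id3 lost their call, and genes that include Acvrl1, Acvr2a, Nrros and Map2k6 gained one toward CD4SP. Thus 38.5% of rescaled pathway calls were toward CD8SP, beside 50.5% of rescaled calls over all genes. Over the 63 genes the median log2 ratio was -0.02, beside 0.22 over all measured genes. Before rescaling 11 of 63 were called, a share close to the 14.9% of all measured genes. After rescaling 13 were called, beside 1294 over all genes.

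Of 8 other ligand genes only Gdf11, a ligand of the activin branch, was measured, at 3.61 FPKM in CD4SP and 2.17 in CD8SP. Of 12 other receptor genes 6 were measured. Eng, the coreceptor endoglin, was called higher in CD8SP, at 6.35 FPKM (5.92 to 8.23) against 1.24 (0.854 to 2.05). Tgfbr3, the coreceptor betaglycan that presents the ligand to the type II receptor, was the highest of them, at 18.6 FPKM in CD4SP and 11.5 in CD8SP, and was not called. The median log2 ratio of the 6 was -0.72. Of 4 other Smad genes 2 were measured and none was called, the highest being Smad5 of the bone morphogenetic protein branch at 17.7 FPKM, above its interval of 13.4 to 17.1, and 11.2.

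Among 12 genes of ligand storage and activation 4 were measured. Furin, a protease that cleaves the TGF-β precursor, was called higher in CD8SP (5.36 against 2.48 FPKM), and Mmp14, a membrane protease, higher in CD4SP (1.54 against 0.290). Furin lost its call in the exon-based value (2.40 and 4.12), as did Mmp14 (0.993 and 0.290). Nrros, which anchors latent TGF-β, had the highest value of the list, 9.0 FPKM in CD4SP, beside 4.45 in CD8SP, where Itgav (6.76) and Furin stood above it, while the exon-based value of Nrros pointed the other way, at 8.96 and 15.7. Of the 17 receptor and Smad partners 13 were measured. Pmepa1, an inhibitor that sequesters receptor-activated Smads and is itself a pathway target, was called higher in CD8SP, at 7.52 FPKM (6.85 to 8.11) against 2.59 (2.32 to 2.98). Fkbp1a, which binds the type I receptor and holds it inactive, was called higher in CD4SP, at 22.0 against 5.70 FPKM. Trim33, a Smad4-binding ubiquitin ligase, had the highest value of a partner, 29.3 FPKM in CD4SP, beside 23.3 in CD8SP, where Sp1 stood above it at 25.6.

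All 11 ubiquitin ligases and deubiquitinases were measured, and 2 were called, both higher in CD8SP. Usp11, a deubiquitinase that acts on the type I receptor, stood at 10.8 FPKM against 2.19 in CD4SP. Nedd4l, a ligase of Smad2 and Smad3, stood at 10.9 against 5.30, with both values below their intervals (10.95 to 14.2 and 5.48 to 7.04), and lost its call in the exon-based value (2.89 against 1.90). Usp9x, which acts on Smad4, was the highest at 35.1 and 69.9 FPKM, just under the size for a call, both above their intervals (28.7 to 33.5 and 54.0 to 62.2), and its exon-based value was 17.0 and 19.3. None of 10 genes of the non-Smad arm was called, and Rhoa was the highest at 55.1 FPKM, above its interval of 38.2 to 41.1, and 53.1.

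Of 20 target genes 16 were measured, with 3 calls toward CD8SP and 1 toward CD4SP. Itgae, the αE integrin that TGF-β induces in CD8 T cells, was listed with 0.231 FPKM in CD4SP against 33.7 in CD8SP, the latter below its interval of 41.7 to 44.0. Runx3, the CD8 lineage factor, stood at 3.15 and 9.23, the latter below its interval of 11.7 to 13.2, and Id3, an inhibitor of E proteins, at 28.5 and 64.4. Foxp3, the regulatory T cell factor, stood at 2.18 and 0.318. Ccr7, a homing receptor, was the highest at 66.5 and 77.7 FPKM. The median log2 ratio of the measured targets was -0.31. Itgae and Runx3 are also CD8 lineage markers and Foxp3 a regulatory T cell marker, and 5 pathway genes in all stand in a marker list. For these, lineage, the makeup of the sort and pathway activity cannot be told apart.

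**Figure D5:**
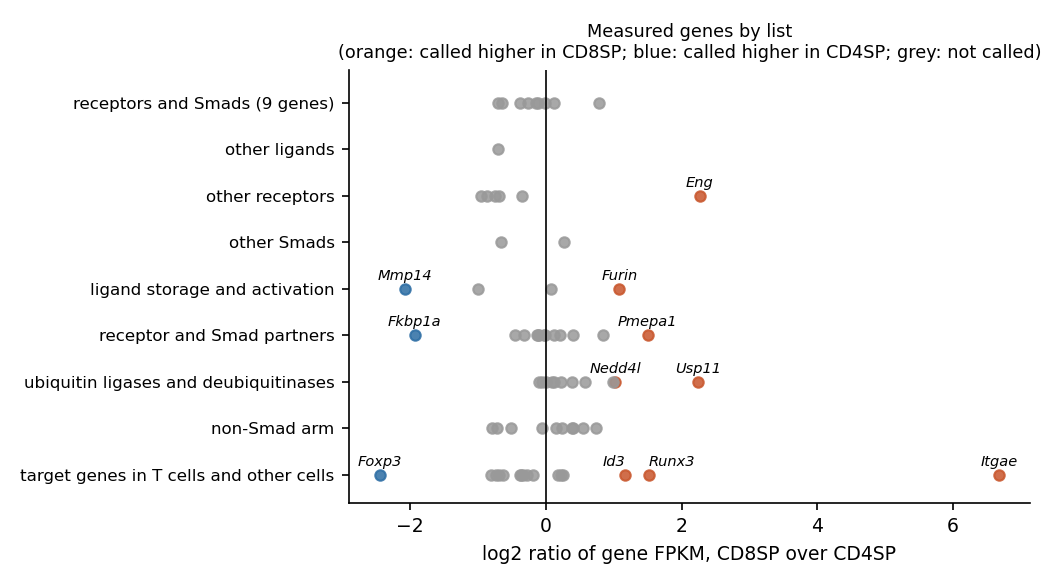
Log2 ratio of gene FPKM between lineages (x axis) for the 9 genes and for the measured genes of each pathway list (y axis), 1 point per gene. The 9 genes lie between -0.70 and 0.78, and the called genes are named, Itgae being the farthest at 6.67.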

How the data were processed

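Short-read values are FPKM with lower and upper limits for each RefSeq or assembled transcript, deposited by the authors in 1 pooled file per lineage and written by Cufflinks per the file headers. No source used here gives read numbers, so the depth is unknown. The authors' long-read tables list collapsed isoforms with category, length, exons and the percent of A in the genome past the 3′ end, as the file headers say. Their columns for read counts are empty. Per the submitters' processing notes, the tools were Cufflinks 2.1.1, TopHat2 2.0.14, RSEM 1.3.1, GSNAP, Trimmomatic and FastQC, with the build GRCm38 and no roles stated. Of 30604 RefSeq identifiers 30018 matched a symbol of the GRCm38.p6 gene table. Gene FPKM is the sum over RefSeq transcripts and over assembled transcripts of at least 2 exons that share an intron with that gene only, with limits summed likewise. The exon-based value uses transcripts of at least 200 bases. Rescaling multiplied CD8SP FPKM by 0.860, so that the median log2 ratio of genes at 1 FPKM or more in both lineages was 0.

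Events of 7 types were built from intron chains, with 10 exon bases required on each side of a retained intron. PSI limits were computed from the deposited FPKM limits. Scripts ran in Python 3.11.15 with SciPy and were tested on simulated transcripts. Named were all 9 genes, the called genes (up to 4 per direction) and the highest gene of each list, all events with both forms in RefSeq, and up to 2 other events per gene, those called with both forms in both files first and then by summed FPKM. The genes and lists were chosen with earlier results of these data known. Positions and splice annotation are from GENCODE M21 on GRCm38. Log2 ratios on FPKM plus 0.1 understate the change of low genes, and an FPKM of 0 can be a failed estimate. Transcripts of a gene can share reads, so the split between overlapping isoforms is an estimate. 1 deposited table of TPM was not used, since its isoform names carry no gene name.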

Additional observations from a re-analysis of the deposited data

How the results depend on the processing

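None of the 9 genes was called under any of the 9 alternatives tried, and their median log2 ratio stayed between -0.36 and -0.01. Over single genes, 27 of 54 recomputed log2 ratios lay outside the range given by the deposited intervals and 7 had the opposite sign, none above 0.92 in size. Part of the 27 was not moved out by the alternative, since 2 main ratios already lay outside. These were Tgfb1 (-0.11, range -0.53 to -0.17) and Tgfbr2 (0.12, range -0.19 to 0.04). Calls over all genes numbered 1425, and 887 with a pseudocount of 1, 704 at an FPKM of at least 5 and 2324 without a filter. Pathway calls ranged from 8 to 14. With RefSeq transcripts only they split into 7 toward CD8SP and 7 toward CD4SP, beside 1257 and 454 over all genes. Events with both forms in RefSeq and called over all genes fell from 608 to 190 at a summed FPKM of at least 5. At a difference of 10 points they came to 1336 of 3426, where the count in the 9 genes was 1 of 5. All called events numbered 18203 over all genes, 4560 at a summed FPKM of at least 5 and 39239 at 10 points. In the 9 genes these were 13, 4 and 26. The 13 and the 26 are of 80 events tested, beside 91453 tested over all genes. The count was 9 when only transcripts counted in the gene entered, an alternative chosen after seeing the data, as was an exon-based value with strandless fragments. For the 4 and the 9 no share over all genes was computed, so neither can be set against the background. Long-read isoforms of the 9 genes numbered 0 in CD4SP and 1 in CD8SP when unspliced ones were left out, and 1 and 5 with at most 60% A after the 3′ end. No paired analysis was possible because each lineage has 1 pooled value, and leaving out a lane was not possible for the same reason.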

Other observations

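Several assembled transcripts of these genes ran past the annotated 3′ end without touching the exons of another gene on the same strand. For Smad3 they reached 15372 bases past it in CD4SP and 27289 in CD8SP, at 0.758 FPKM or less. For Tgfb1 they reached 33936 bases past it in CD4SP, where the only one above 0 stood at 0.412 FPKM. A Smad4 transcript reached 7422 bases past the end in CD4SP at 1.32 FPKM. The FPKM of such long transcripts enters the gene sums and is spread over bases outside the annotated gene.

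The CD8SP long-read table also held 1 isoform antisense to Tgfbr2, of 2614 bases and 2 exons, with a non-canonical splice junction and 85% A after its 3′ end. It is not counted among the isoforms of the gene.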
